A study of Homo sapiens with 6 samples.

Results

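The transcription factors of the AP-1 and EGR families were followed in T47D cells, a luminal breast cancer line that expresses the estrogen receptor, after an siRNA against HOTAIR-N or a control siRNA. The 10 members were taken by gene symbol from the 27968 genes of the deposited tables: JUN, JUNB and JUND, then FOS, FOSB, FOSL1 and FOSL2, then EGR1, EGR2 and EGR3. Both groups were grown in medium with 10% serum and transfected with the same lipid reagent, and total RNA was taken 48 hours later. Each group held 3 libraries of this 1 cell line. The labels do not say whether they came from separate transfections, so the p-values measure the spread between these libraries, which may be technical. The labels name HOTAIR-N as the target of the siRNA, and HOTAIR is a long noncoding RNA of the HOXC locus; the gene table holds HOTAIR only as 1 gene.

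AP-1 is not 1 protein but a set of dimers. JUN proteins pair with each other or with FOS proteins through a leucine zipper, whereas FOS proteins need a JUN partner, and the dimers bind short palindromic sites named after phorbol ester or cyclic AMP response. EGR proteins bind GC-rich sites through zinc fingers and are held in check by the corepressors NAB1 and NAB2. Most of these genes are immediate early genes: growth factor signals through ERK, acting on the serum response factor and its ternary complex partners, switch them on within minutes, and their short-lived mRNAs then decay. In breast epithelium AP-1 is known for its part in growth factor responses and in invasive behaviour, and EGR3 as a gene that estrogen induces.

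The promoters of these genes carry short sites for the same kinds of factors, and stretches of 30 bases around such sites are shown to let the members be compared. They come from the RefSeq promoter table of GRCh38.p14, and windows of 8 of the 10 members were searched. FOSL1 and EGR3 were not searched, so whether their promoters hold such sites is not shown here. Each window runs from 250 bases before to 50 bases after a start site, and positions count from the start site, with the last base before it at -1. Capitals mark the matched letters.
JUN, JUN-type AP-1 site at -67, chr1:58784096-58784125, minus strand: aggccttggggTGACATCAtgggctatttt
JUND, CRE at -200, chr19:18281804-18281833, minus strand: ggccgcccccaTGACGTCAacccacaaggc
JUNB, TGACG at -137, chr19:12791336-12791365, plus strand: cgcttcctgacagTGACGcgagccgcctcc
FOS, TGACG at -64, chr14:75278751-75278780, plus strand: gtggttgagcccgTGACGtttacactcatt
FOSB, TGACG at -60, chr19:45467923-45467952, plus strand: agcaaggggcgggTGACGtaagcagggggg
FOSL2, TGACG at -66, chr2:28392779-28392808, plus strand: tggagtctggggtTGACGtgagtgaatcca
EGR1, CArG box at -83, chr5:138465386-138465415, plus strand: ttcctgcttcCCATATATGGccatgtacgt
EGR2, CArG box at -71, chr10:62816418-62816447, minus strand: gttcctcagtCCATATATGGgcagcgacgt

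The sites were searched on both strands. TGACGTCA, the full cyclic AMP response element (CRE), was found in 1.85% of the 35116 promoter windows of the table, and its core TGACG, which the CRE contains, in 24.6%. The JUN-type site TGACATCA was in 2.61% of windows, the AP-1 site TGACTCA in 4.95%, and the CArG box, to which the serum response factor binds, in 1.29%. Among the members TGACATCA was found only in JUN and TGACTCA only in FOSL2, just after its start site. All 8 members searched held TGACG in a window. The CArG box was found in EGR1 and EGR2 but not in the windows of the other 6. EGR2 had several windows, and only the window shown above held TGACG and a CArG box. The background shares count windows, not genes. The JUN, JUNB and JUND windows also held the letters CCAAT, which 34.6% of windows do. A match describes the letters and shows no binding. The 250 bases before the start sites of JUNB and JUND, which like JUN rose after the HOTAIR-N siRNA, are printed whole as examples. A part of these sites in the rise was not tested. Capitals mark the TGACG and CCAAT of JUNB and the TGACGTCA and CCAAT of JUND.
JUNB, chr19:12791236-12791485, plus strand: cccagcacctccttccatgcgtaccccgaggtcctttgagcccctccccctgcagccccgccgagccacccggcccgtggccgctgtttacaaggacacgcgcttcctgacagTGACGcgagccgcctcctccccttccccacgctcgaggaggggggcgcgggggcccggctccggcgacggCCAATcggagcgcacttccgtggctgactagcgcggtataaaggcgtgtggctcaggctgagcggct
JUND, chr19:18281623-18281872, minus strand: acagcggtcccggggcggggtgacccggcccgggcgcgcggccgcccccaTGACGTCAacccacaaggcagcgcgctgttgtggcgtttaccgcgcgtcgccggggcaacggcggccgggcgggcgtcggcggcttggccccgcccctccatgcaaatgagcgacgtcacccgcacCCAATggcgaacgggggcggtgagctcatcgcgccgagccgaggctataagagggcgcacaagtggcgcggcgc

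The libraries held 31777001 to 36707169 expected counts, and 1 CPM, the unit of counts scaled to a common library size by TMM, stood for 32.9 to 36.4 counts. HOTAIR had 540 to 581 counts with the control siRNA and 185 to 206 after the HOTAIR-N siRNA. The 10 luminal markers looked at, such as KRT8 and GATA3, summed to 9152 to 10014 CPM in the control group and 7684 to 8340.3 CPM in the HOTAIR-N group. Within that sum, which keratins dominate, the estrogen receptor gene ESR1 fell to 32.1% of control and the progesterone receptor gene PGR to 36.4%, while CDH1 rose 1.86-fold and SPDEF 1.53-fold (edgeR adjusted p of at most 1.3e-05). KRT18, EPCAM, FOXA1 and GATA3 fell less, to 65.8%, 77%, 80.4% and 80.6% of control (edgeR adjusted p of at most 4.8e-05). KRT8 and KRT19 had edgeR adjusted p of 0.17 and 0.38. The part of the lower ESR1 level in the values of EGR3 and AREG was not tested. Markers of endothelial cells and leukocytes summed to at most 0.247 and 0.841 CPM in any library. The 6 fibroblast markers summed to 28 to 32.6 CPM, and 3 of them had enough reads to be tested. COL1A1 held most of the sum and fell to 83.6% of control (edgeR adjusted p = 0.0092). COL3A1 fell from 0.805 ± 0.0805 to 0.242 ± 0.077 CPM (SD, n = 3). LUM stood at 0.224 to 0.268 CPM with the control siRNA and 4.8 to 5.14 CPM after the HOTAIR-N siRNA. The part of these markers in the results was not tested. Replicate 2 of the control siRNA and replicate 3 of the HOTAIR-N siRNA stood apart from the other libraries of their groups: pairs that held one of them differed by a chi-square per degree of freedom of 7 to 8.81, the other pairs by 2.17 and 2.36.

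All 3 JUN genes rose after the HOTAIR-N siRNA, FOS, FOSB and EGR3 fell, and FOSL2 and EGR1 were not called. JUN, the founding AP-1 gene, rose 2.35-fold, JUNB 1.98-fold and JUND 1.43-fold, while FOS fell to 31.4% of control, FOSB to 61.6% and EGR3 to 29.3%. FOSL1 and EGR2 had too few reads to be tested. Of the 8 members tested, 6 were thus called, 3 higher and 3 lower, with edgeR's quasi-likelihood p-values adjusted over 14919 genes by Benjamini-Hochberg and a threshold of 0.05. Over all genes tested 71.1% were called, 36.2% higher and 34.8% lower, so that the share among the members is near the background. In these bulk libraries fewer cells with a transcript and less of it per cell cannot be told apart.

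**Figure D1:**
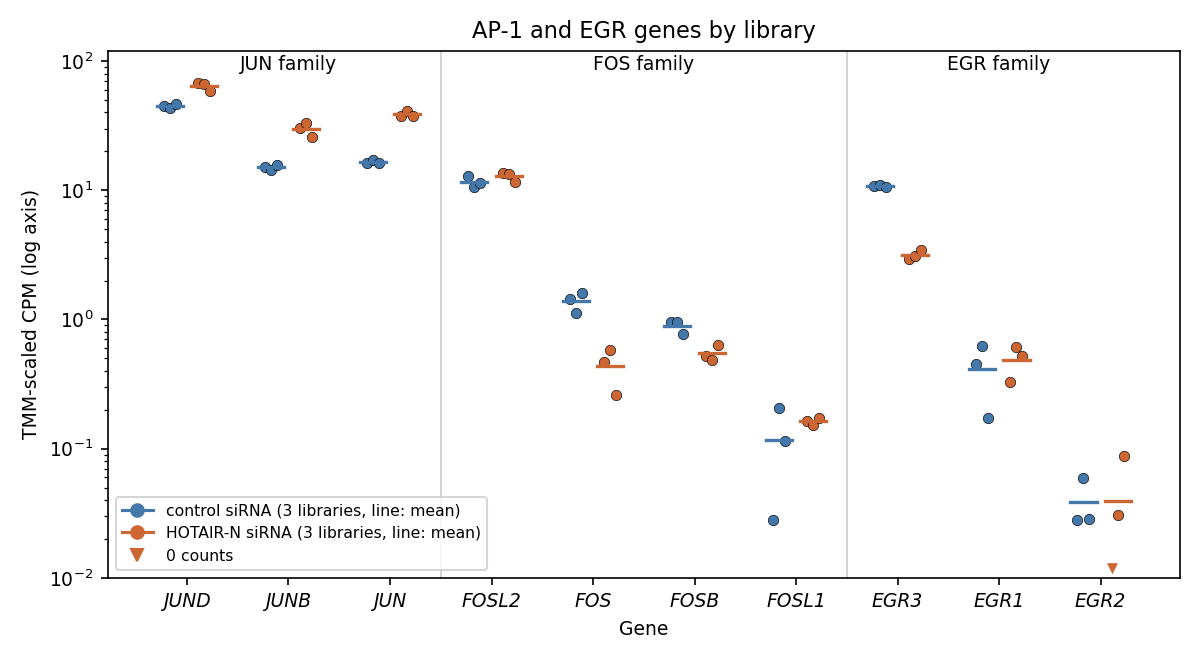
Level of each AP-1 and EGR gene in every library, as TMM-scaled CPM on a log axis, with 3 libraries a group and the group mean as a line. The 3 JUN genes lie higher with the HOTAIR-N siRNA, FOS, FOSB and EGR3 lower, and FOSL2, FOSL1, EGR1 and EGR2 overlap between the groups; the triangle marks the library with 0 counts of EGR2.

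JUN encodes the AP-1 subunit that can act as a dimer with itself and has the strongest activation domain of its family. It was at 16.2, 17 and 16.3 CPM in control siRNA replicates 1, 2 and 3 and at 37.5, 41 and 37.7 CPM in those of the HOTAIR-N siRNA. All 3 HOTAIR-N libraries lay far above the highest control library. The mean went from 16.5 ± 0.469 to 38.7 ± 1.96 CPM (SD, n = 3), a log2 fold change of 1.23 with an SE of 0.06 (adjusted p = 4.3e-09, edgeR). Of all genes tested, 6.36% had a log2 fold change at least as high.

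JUNB encodes a weaker activator that can oppose JUN on some promoters. Its level was 15, 14.4 and 15.6 CPM with the control siRNA and 30.2, 33 and 25.8 CPM after the HOTAIR-N siRNA. In the HOTAIR-N group replicate 3 was lowest, and it was still well above every control library. The mean rose from 15 ± 0.569 to 29.7 ± 3.6 CPM (SD, n = 3), or by 0.98 on the log2 scale (SE 0.09, edgeR quasi-likelihood adjusted p = 6.5e-07). A spliced form of HOOK2 reaches over JUNB on the opposite strand in the GENCODE annotation, and HOOK2 itself, at 33.6 ± 2.42 and 40.9 ± 2.42 CPM (SD, n = 3), rose by 0.28.

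JUND encodes the member that is expressed steadily in most cells and is less tied to growth signals. It stood at 44.7, 43.3 and 46.4 CPM in the control libraries and at 67.1, 66.9 and 58.3 CPM in the HOTAIR-N libraries. The groups did not overlap, and replicate 3 was again the lowest of its group. The log2 fold change of 0.52 ± 0.06 (SE; adjusted p = 1.3e-05, edgeR) was the smallest of the 3.

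Ratios within a library do not depend on how libraries are scaled. The log2 ratio of JUN to JUND counts was -1.47, -1.35 and -1.51 in the control libraries and -0.84, -0.71 and -0.63 in the HOTAIR-N libraries. The ratio was thus higher in every HOTAIR-N library than in every control library, with a difference of 0.72 between the group means. JUNB gained on JUND by 0.46, from -1.58 ± 0.01 to -1.12 ± 0.08 (SD, n = 3), and JUN gained 0.25 on JUNB, from 0.14 ± 0.09 to 0.39 ± 0.14 (SD, n = 3), again with no overlap between the groups. In an exact two-sided permutation test each of these, and the other 2 of the 5 ratios computed, had p = 0.1, adjusted p = 0.1, which is the smallest that 3 against 3 libraries allow, so that none could pass the threshold.

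FOS, whose short-lived protein is the partner of JUN in the classical AP-1 dimer, was at 51, 38 and 56 counts with the control siRNA and at 17, 19 and 9 counts after the HOTAIR-N siRNA. The groups did not overlap, although the gene was low in both. In CPM the libraries read 1.43, 1.13 and 1.6 against 0.467, 0.578 and 0.261, with means of 1.39 ± 0.239 and 0.435 ± 0.161 (SD, n = 3). The log2 fold change was -1.67 ± 0.27 (SE; adjusted p = 0.00011, edgeR). Among all genes tested, 1.86% were at or below this value.

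FOSB, a relative of FOS with a strong activation domain, had 34, 32 and 27 counts in the control libraries and 19, 16 and 22 in the HOTAIR-N libraries. The groups came close to each other but did not overlap, with 27 counts in the lowest control library and 22 in the highest HOTAIR-N library. The mean fell from 0.893 ± 0.104 to 0.549 ± 0.0788 CPM (SD, n = 3), with a log2 fold change of -0.7 with an SE of 0.22 (adjusted p = 0.013, edgeR). The call was lost in DESeq2 (adjusted p = 0.105) and without HOTAIR-N siRNA replicate 2 (edgeR quasi-likelihood adjusted p = 0.05, just not under the threshold). FOSB lies within the span of ERCC1 on the other strand in GENCODE, and the far more abundant ERCC1 rose by 0.33 on the log2 scale, from 54 ± 5.02 to 67.8 ± 2.12 CPM (SD, n = 3).

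FOSL2, which encodes FRA-2, was the FOS family gene with the most reads in both groups. It was at 12.8, 10.6 and 11.4 CPM with the control siRNA and at 13.7, 13.3 and 11.6 CPM after the HOTAIR-N siRNA. The groups overlapped, and the log2 fold change of 0.15 (95% interval -0.05 to 0.34) was not called (edgeR quasi-likelihood adjusted p = 0.16). With library totals alone as the scaling it was called, at 0.24 (edgeR quasi-likelihood adjusted p = 0.0321); that scaling moved the median of all genes from 0.018 to 0.116. FLJ31356, a noncoding gene that overlaps the start of FOSL2 on the opposite strand, had 1, 3 and 6 counts in the control libraries and 26, 38 and 28 in the HOTAIR-N libraries (log2 fold change 3.16, edgeR quasi-likelihood adjusted p = 2.6e-05). The kit marks strand, but the labels do not say whether the counting used it, so reads of such overlapping pairs cannot be told apart.

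FOSL1, which encodes FRA-1 and is typical of basal rather than luminal breast cancer cells, was close to absent. It had 1, 7 and 4 counts with the control siRNA and 6, 5 and 6 after the HOTAIR-N siRNA, too few to pass the filter. With no filter its log2 fold change was 0.47 ± 0.62 (SE; adjusted p = 0.531, edgeR), so a change was not detectable at this depth.

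EGR3 was the EGR gene with the most reads in both groups. Its fold change and that of FOS were not separated, since either was the larger depending on which library was left out. Its level was 10.7, 11 and 10.5 CPM in the control libraries and 2.91, 3.07 and 3.42 CPM in the HOTAIR-N libraries. The spread within each group was small beside the gap between them. The mean fell from 10.7 ± 0.254 to 3.13 ± 0.26 CPM (SD, n = 3), a log2 fold change of -1.77 with an SE of 0.09 (adjusted p = 6e-09, edgeR), and 1.53% of all genes tested had one at or below it. GENCODE places the noncoding gene AC055854.1 across part of EGR3 on the opposite strand; it was not analysed here.

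EGR1, the serum-induced founder of its family, had 16, 21 and 6 counts with the control siRNA and 12, 20 and 18 after the HOTAIR-N siRNA. The groups overlapped, the log2 fold change was 0.22 (95% interval -0.65 to 1.09) and the gene was not called (edgeR quasi-likelihood adjusted p = 0.63). Its sign rested on 1 library: without control siRNA replicate 3 the log2 fold change was -0.15 (edgeR quasi-likelihood adjusted p = 0.705). EGR2, better known from myelinating cells and lymphocytes, had 1, 2 and 1 counts and 0, 1 and 3 counts and was not tested. The library with 0 counts allows up to 0.0823 CPM, for counting error only.

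**Figure D2:**
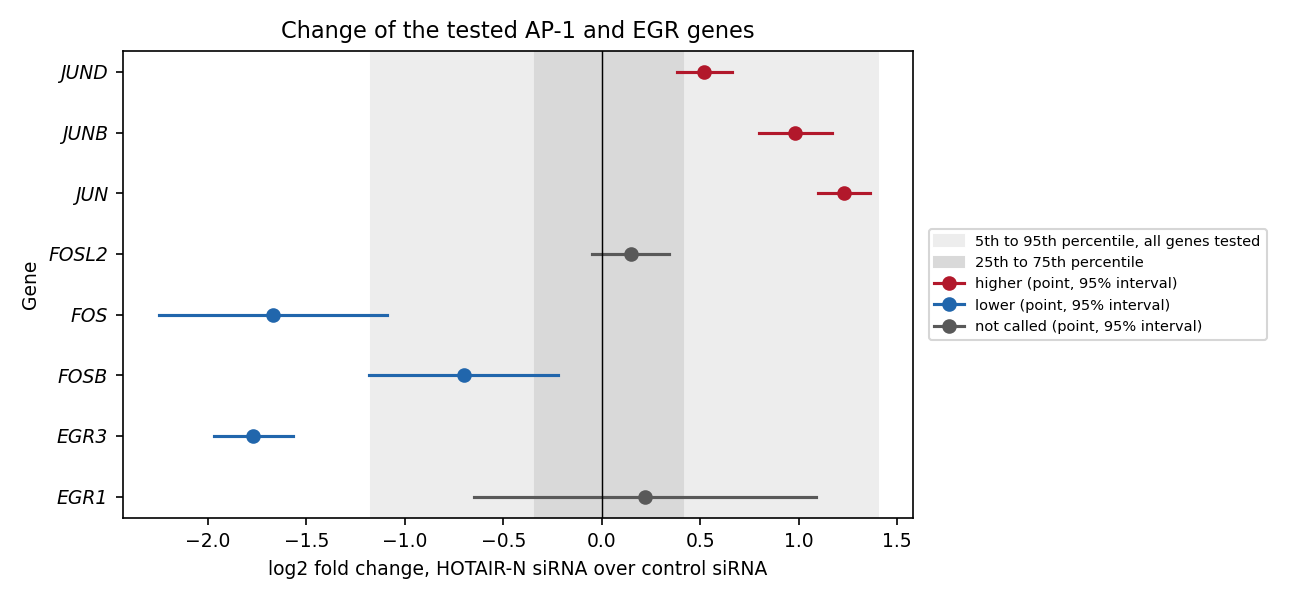
Log2 fold change of the 8 members tested, HOTAIR-N siRNA over control siRNA, with 95% intervals from edgeR's quasi-likelihood fit of 3 against 3 libraries; the bands span the 25th to 75th and the 5th to 95th percentile of all 14919 genes tested. FOS and EGR3 lie below the 5th percentile of -1.17, while JUN at 1.23 is inside the 95th percentile of 1.4.

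Groups of 3 libraries did not overlap for 6 of the 8 members tested, and for 73.4% of all genes tested. Without the 1 library of each group that stood apart, 6 members were called as well, 3 higher and 3 lower. JUNB was then higher by 1.03 and JUND by 0.54 on the log2 scale, and FOS was at -1.55.

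Levels of different genes were compared in the deposited TPM, which account for transcript length. With the control siRNA the order was JUND at 45.9 ± 1.54, JUNB at 16.7 ± 0.632, JUN at 9.6 ± 0.257, FOSL2 at 5.58 ± 0.57, EGR3 at 4.89 ± 0.141 and FOS at 1.28 ± 0.224 TPM (SD, n = 3). The libraries of each neighbour in this order did not overlap, though the lowest FOSL2 library, at 5.08 TPM, lay close to the highest EGR3 library, at 5.02 TPM. FOSB (0.453 TPM), EGR1 (0.26), FOSL1 (0.143) and EGR2 (0.0267) followed, and each overlapped the next. After the HOTAIR-N siRNA the first 6 kept their places, at 67 ± 4.98 TPM for JUND, 33.8 ± 4.01 for JUNB, 23 ± 1.2 for JUN, 6.31 ± 0.539 for FOSL2, 1.49 ± 0.142 for EGR3 and 0.413 ± 0.152 for FOS (SD, n = 3). FOS then overlapped EGR1 at 0.307 ± 0.0874 TPM, and EGR1 overlapped FOSB at 0.287 ± 0.0473 TPM (SD, n = 3).

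Summed over each family, JUN transcripts stood at 72.2 ± 1.93 TPM with the control siRNA and 124 ± 9.51 TPM after the HOTAIR-N siRNA (SD, n = 3). FOS family transcripts were at 7.46 ± 0.6 and 7.23 ± 0.627 TPM, a difference smaller than the spread of either group. JUN family mRNA was 9, 10.2 and 9.92 times FOS family mRNA in the control libraries and 16.5, 17.5 and 17.4 times in the HOTAIR-N libraries, with no overlap. JUND made up 63.5 ± 0.445% of the JUN family sum with the control siRNA and 54.1 ± 1.13% after the HOTAIR-N siRNA, and the share of JUN went from 13.3 ± 0.708% to 18.6 ± 1.17% (SD, n = 3). FOSL2 made up 74.7 ± 1.95% and 87.3 ± 0.816% of the FOS family, and FOS 17.2 ± 2.41% and 5.63 ± 1.72% (SD, n = 3). EGR family transcripts summed to 5.18 ± 0.291 and 1.82 ± 0.225 TPM, of which EGR3 held 94.6 ± 2.62% and 82 ± 4.37% (SD, n = 3). These sums are descriptions of mRNA, say nothing of protein, and were not tested.

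**Figure D3:**
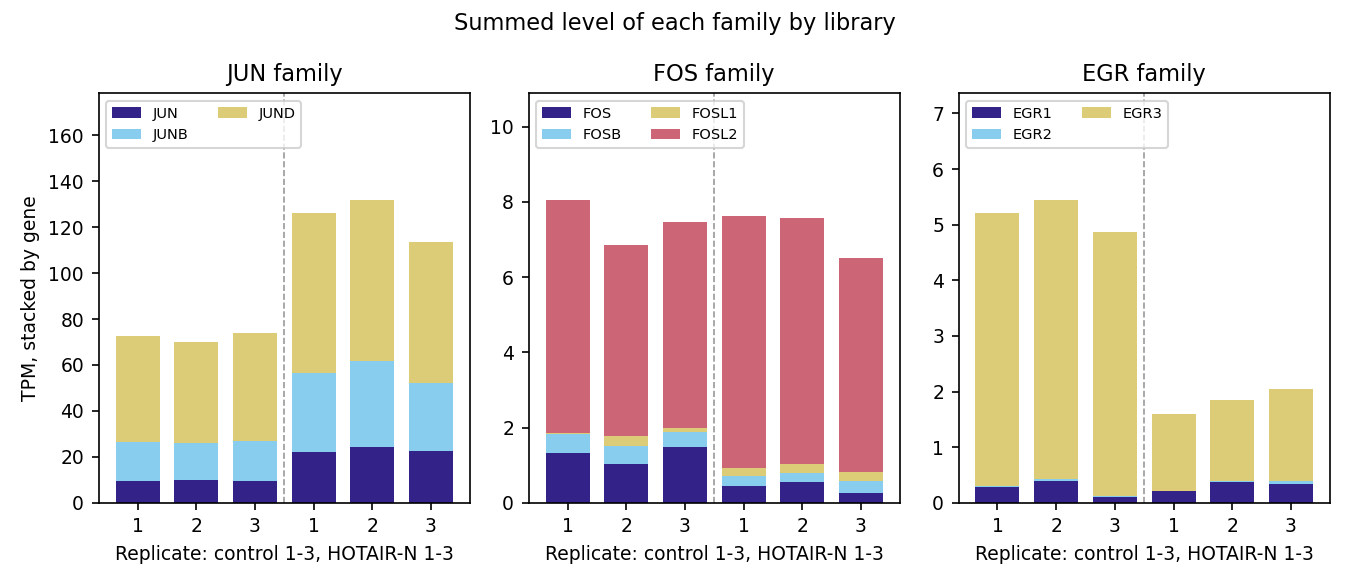
Deposited TPM of the JUN, FOS and EGR genes, stacked within each family, in control siRNA replicates 1 to 3 (left of the dashed line) and HOTAIR-N siRNA replicates 1 to 3 (right). The JUN family sum is 72.2 TPM on average with the control siRNA and 124 after the HOTAIR-N siRNA, the FOS family sum is 7.46 and 7.23, and the EGR family sum is 5.18 and 1.82; the panels have their own scales.

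The deposited transcript tables list 23 RefSeq transcripts of the 10 genes, and 5 genes (JUN, JUNB, FOS, FOSL2 and EGR1) have only 1. Of 10 member transcripts tested, 6 were called, beside 32% of 32285 transcripts over all genes. The called ones include both JUND forms, which have equal counts. They also include the only transcripts of JUN, JUNB and FOS, which repeat the gene counts. The 6 are thus not separate results. For EGR3 the called form was NM_004430, which fell by 2.2 on the log2 scale (SE 0.23, edgeR quasi-likelihood adjusted p = 0.0012). It held 71.16%, 60.21% and 67.33% of the gene in the control libraries and 43.06%, 64.81% and 38.33% in the HOTAIR-N libraries, so its share overlapped between the groups. The other 2 EGR3 forms took turns: NM_001199880 had reads only in control siRNA replicates 2 and 3 and NM_001199881 only in the other 4 libraries. The 2 JUND forms were given equal counts in every library, as happens where reads cannot separate them. All 22 FOSB reads of HOTAIR-N siRNA replicate 3 were assigned to NM_001114171, which is 108 bases shorter than NM_006732, while nearly all FOSB reads of the other 5 libraries went to NM_006732. With so few reads the split between forms is uncertain, and no change of form was tested.

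The genes around these factors were read in 10 lists, some of which share genes (DUSP1, ATF3, MAFF, NAB1, NAB2, ARC, TGFB1 and F3 are each in 2, and the AP-1 targets include FOSL1). The median log2 fold change of all genes tested was 0.018. The counts of each list stand beside 71.1% of all genes tested that were called, 36.2% higher and 34.8% lower. Among 14 tested bZIP partners of AP-1, 6 rose, 3 fell and 5 were not called, with a median of 0.13. BATF2, an interferon-inducible bZIP factor, went from 1.05 ± 0.109 to 18.1 ± 3.33 CPM (SD, n = 3), a 17.2-fold rise, and ATF3, a stress-induced partner of JUN, rose 1.58-fold. ATF2, which pairs with JUN at CRE-like sites, fell to 66.9% of control and the small MAF gene MAFG to 66.4%.

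Among partners and competitors of EGR proteins, 2 of 4 tested genes fell and none rose. WT1, a zinc finger factor that binds EGR-like sites, fell from 10.4 ± 0.627 to 4.06 ± 0.349 CPM (SD, n = 3) and SP1, which binds GC boxes, to 71.7% of control. The genes of the EGR corepressors NAB1 and NAB2 had log2 fold changes of -0.05 and -0.01 and were not called (edgeR quasi-likelihood adjusted p = 0.55 and 0.9).

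Of 10 tested genes for the serum response factor and the factors that act with it or with CREB, 3 rose, 5 fell and 2 were not called (median -0.24). SRF itself rose 1.23-fold. ELK3, a ternary complex factor, fell to 36.5% of control and MKL2, an actin-regulated coactivator, to 48.4%. CREM, a gene of the cyclic AMP pathway, rose 5.47-fold from 3.81 ± 0.27 to 20.9 ± 0.572 CPM (SD, n = 3).

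The called shares of the upstream kinase lists, 71.4% for the ERK pathway and 58.8% for JNK and p38, were near or below the 71.1% of all genes tested. In the ERK pathway 4 of 14 tested genes rose and 6 fell (median -0.05), against 5 and 3 with library totals alone and 5 and 4 with upper-quartile scaling. MAP2K1, which encodes the ERK kinase MEK1, fell from 97.8 ± 1.06 to 42.9 ± 0.566 CPM (SD, n = 3) and NRAS to 54.6% of control, whereas BRAF rose 1.31-fold and RPS6KA1, a kinase downstream of ERK, 1.36-fold. In the JNK and p38 pathways 4 of 17 rose and 6 fell (median -0.13). MAPK8 and MAPK9, which encode the JUN kinases JNK1 and JNK2, fell to 61.7% and 64% of control. MAPK8IP1, a JNK scaffold, rose 3.24-fold and MAPK11, a p38 kinase, 2.29-fold.

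Genes that act on the stability of AP-1 proteins and mRNAs came next. Of 10 genes for the turnover of JUN and FOS proteins, 1 rose, 5 fell and 4 were not called (median -0.13), but 2 rose and 2 fell with library totals alone as the scaling, and 2 and 3 with upper-quartile scaling. FBXW7, the substrate receptor of a ubiquitin ligase for JUN, fell from 26.5 ± 1.2 to 13.9 ± 0.937 CPM (SD, n = 3) and GSK3B, whose phosphorylation of JUN is read by FBXW7, to 65.3% of control, while DET1, part of a ligase complex for JUN, rose 1.97-fold. Of 8 binding factors of AU-rich elements, which mark mRNAs such as that of FOS for decay or protection, 2 rose and 5 fell (median -0.25). ELAVL1, which encodes the stabilising factor HuR, fell from 149 ± 0.966 to 21.7 ± 2.19 CPM (SD, n = 3), the lowest log2 fold change in these lists (-2.78). HNRNPD fell to 70.5% of control, and the decay factors ZFP36 and ZFP36L1 rose 1.18-fold and 1.15-fold, whereas the decay factors ZFP36L2 and KHSRP, named after their values were seen, fell to 77.3% and 75.7%. Against a 1.2-fold change no gene of this list was called higher and 4 were called lower.

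Other immediate early genes were mostly higher. Of 31 tested, 22 rose, 5 fell and 4 were not called, with a median log2 fold change of 0.66. The called share was 87.1%, beside 71.1% of all genes tested, of which 36.2% were higher and 34.8% lower. Among the members JUN, JUNB and JUND rose too, whereas EGR3 and, from few reads, FOS and FOSB fell. CYR61, a matricellular protein gene, went from 15.6 ± 0.261 to 65.6 ± 0.538 CPM (SD, n = 3), a 4.2-fold rise, and the orphan receptor gene NR4A1 4.06-fold. BTG2, an antiproliferative p53 target, and GADD45B fell to 62.9% and 65.1% of control.

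Of 26 tested genes that AP-1 is known to regulate, 16 rose, 7 fell and 3 were not called (median 0.62). The called share was 88.5%, beside 71.1% of all genes tested, so a call by itself says little about a target. The cytokine gene LIF rose 3.23-fold from 1.16 ± 0.0722 CPM (SD, n = 3) and the MAP kinase phosphatase gene DUSP1 3.08-fold. AREG, a growth factor of the EGF family that is also an estrogen target, fell from 248 ± 14.6 to 127 ± 6.27 CPM (SD, n = 3) and TGFB1 to 31.4% of control. Of 20 tested genes that EGR proteins are known to regulate, 5 rose, 8 fell and 7 were not called (median -0.03). With library totals alone 7 rose and 6 fell. The called share of 65% lay below that of all genes tested. TGFB1, which is in this list too, was among those that fell, while TNFSF10, which encodes the death ligand TRAIL and is also interferon-inducible, rose 3.77-fold and ID3 2.44-fold. Every gene named from the lists above with a change had an adjusted p of at most 0.0093 in edgeR's quasi-likelihood test. No list was tested as a set.

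**Figure D4:**
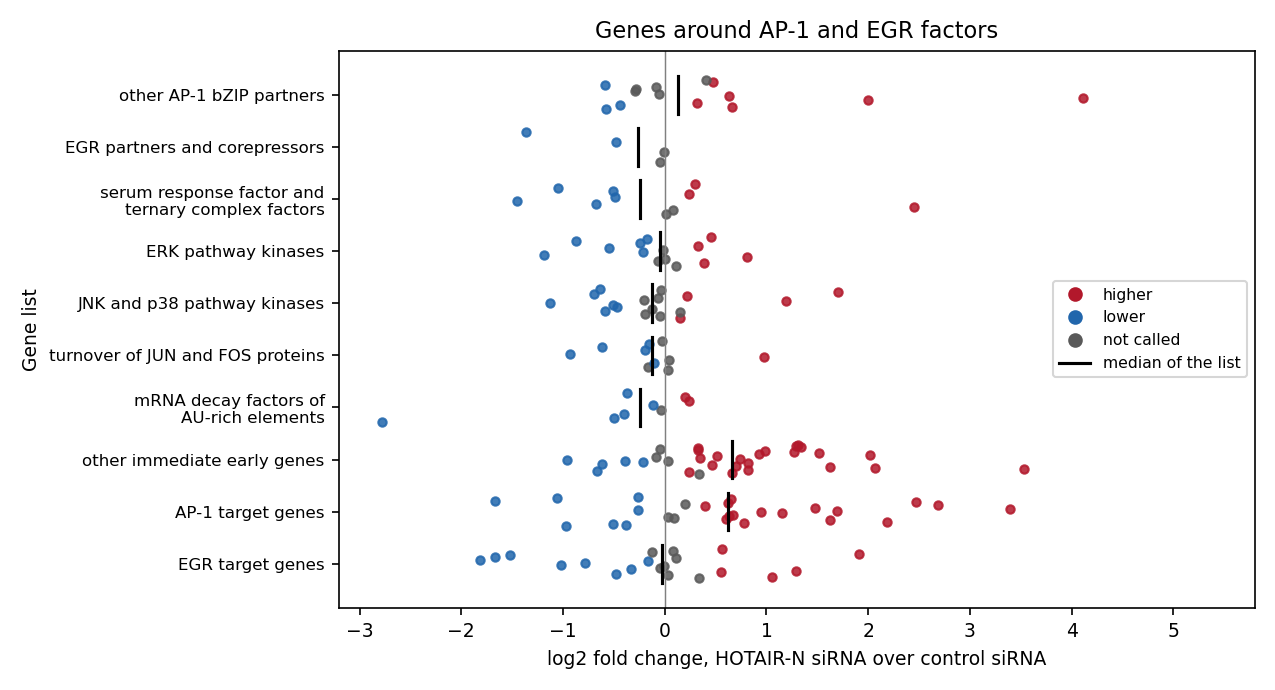
Log2 fold change of each tested gene in the 10 lists around AP-1 and EGR factors, HOTAIR-N siRNA over control siRNA, coloured by its call in edgeR's quasi-likelihood test, with the list's median as a black line. The medians of other immediate early genes (0.66) and AP-1 targets (0.62) lie to the right of 0, and those of the remaining lists between -0.26 and 0.13.

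**Figure D5:**
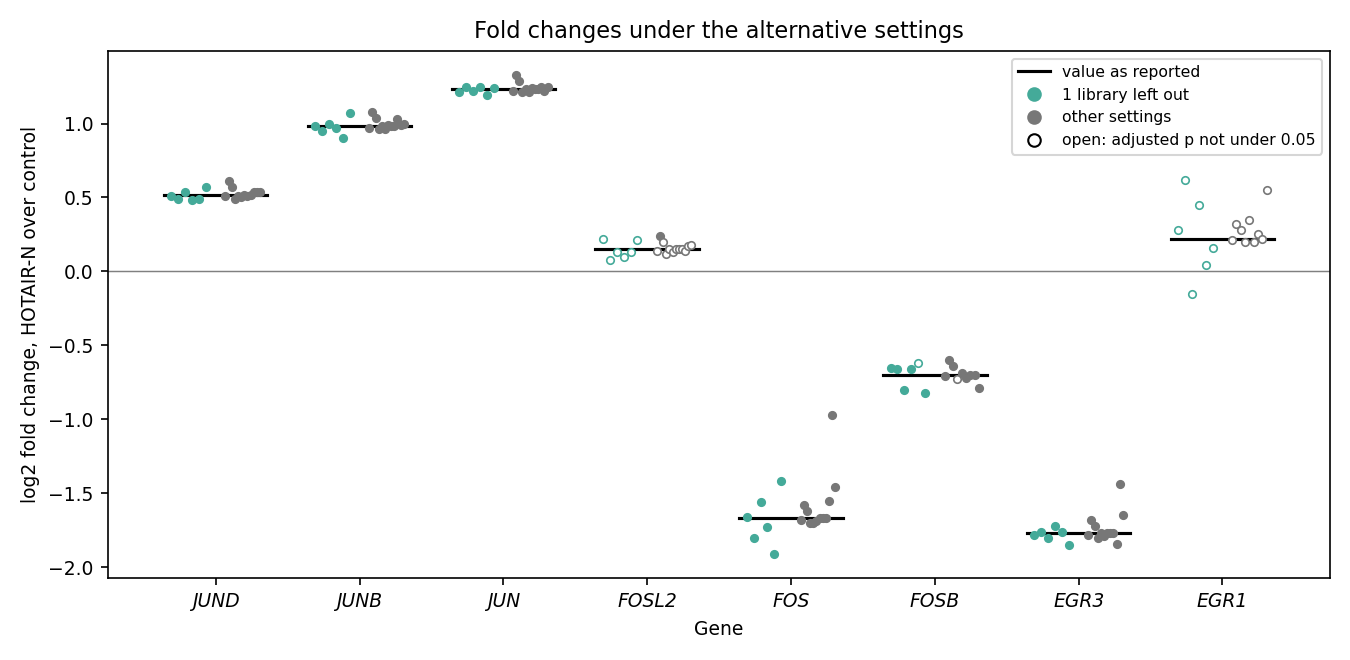
Log2 fold change of the 8 tested members under each alternative setting (grey), with 1 library left out (green) and as reported (black line); open points have an adjusted p that is not under 0.05, and points are spread sideways within a gene only to keep them apart. The 3 JUN genes, FOS and EGR3 have filled points throughout, FOSB and FOSL2 have points of both kinds, and EGR1 has open points only, from -0.15 to 0.62.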

How the data were processed

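RNA-seq libraries of T47D cells, 3 of each siRNA group, were grouped by their labels. Per the labels' protocols, the kit depletes ribosomal RNA and keeps strand. The submitters' processing notes name STAR 2.6.0c, RSEM 1.3.0 and hg19, but no settings. Per the file headers, the gene and transcript tables hold RSEM expected counts, the deposited TPM per gene, and each transcript's share of its gene as a percent, deposited by the authors.

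Expected counts were rounded, filtered with edgeR's filterByExpr (minimum count 10, minimum total 15), normalised by TMM and put through the quasi-likelihood test of edgeR 4.0.16 (R 4.3.3) across all genes or all transcripts. Calls are at a Benjamini-Hochberg adjusted p under 0.05. Limma 3.58.1 and DESeq2 1.42.0 served as alternatives. The members and the lists were chosen with earlier results of these data known. Named genes are the members, HOTAIR, and from each list the 2 highest and 2 lowest called log2 fold changes at an average log2 CPM of at least 1; 1 gene that this rule names is not reported here. Further genes in the closing section were chosen after their values were seen. The steps were tested on simulated counts in which only a small part of the genes was changed. In these data 71.1% of the genes tested were called, and scaling with so many changes was not tested by the simulation. Total counts of 31777001 to 36707169 set the precision, and RefSeq and GENCODE annotations of GRCh38 gave promoters and overlaps only, since the files use hg19.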

Additional observations from a re-analysis of the deposited data

How the results depend on the processing

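The directions of JUN, JUNB, JUND, FOS, FOSB, FOSL2 and EGR3 held under every alternative run. JUN, JUNB, JUND, FOS and EGR3 stayed called under all 18 of theirs. Called members numbered 5 to 7, and 5 to 6 with 1 library left out. Called member transcripts numbered 5 to 7. FOSB lost its call in DESeq2 and without HOTAIR-N siRNA replicate 2, and FOSL2 gained one with library totals alone. EGR1, not called, changed sign without control siRNA replicate 3 (log2 fold change -0.15, and at most 0.62 with another library left out); it rests on 6 to 21 counts a library, and FOS on 9 to 56. The log2 fold change of FOS was -0.97 in limma on log2(TPM + 0.5), where the pseudocount shrinks low genes. Tested against a 1.2-fold change, 6876 genes, 6 ERK pathway genes, 3 protein turnover genes and 4 AU-rich element factors were called, in place of 10605, 10, 6 and 7. Same-numbered libraries did not deviate together (r = -0.04, -0.21 and -0.12 across 14919 genes, and no library correlated best with its own number), so the main fit treats them as unpaired. The deviations are taken from the mean of only 3 libraries a group, so this check cannot settle whether the numbers pair them. With the replicate number as a block 10010 genes and 6 members were called, and protein turnover genes went from 6 to 4, with 1 higher and 3 lower.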

Other observations

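Several low genes outside the naming rule, chosen after their values were seen, were called higher. Other low genes of the same lists were called lower. The AP-1 target TNC had a log2 fold change of -1.06 and the immediate early gene KLF2 one of -0.96. Among AP-1 targets the collagenase gene MMP13 went from 0.221 ± 0.0429 to 2.35 ± 0.28 CPM and the urokinase gene PLAU from 0.448 ± 0.174 to 2.94 ± 0.649 CPM (SD, n = 3), with edgeR quasi-likelihood adjusted p of at most 1.5e-06. Among immediate early genes CTGF, the relative of CYR61, rose by 3.53 on the log2 scale to 1.93 ± 0.146 CPM (SD, n = 3). NR4A2 and NR4A3 rose with NR4A1, by 0.93 and 1.52 on the log2 scale (edgeR quasi-likelihood adjusted p = 0.0023 and 0.0018). The bZIP gene BATF rose 4-fold, from 0.699 ± 0.0736 to 2.81 ± 0.481 CPM (SD, n = 3). Of the ERK-activated ribosomal S6 kinase genes looked at, RPS6KA2 and RPS6KA3 had at most 0.0854 CPM on average in either group, against 33.4 ± 2 and 45.6 ± 1.37 CPM (SD, n = 3) for RPS6KA1.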
